A study of Mus musculus with 7 samples.

Results

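The genes described here encode 10 apolipoproteins, the protein part of the lipoprotein particles that carry fat and cholesterol in blood: Apoa1, Apoc3, Apoa4 and Apoa5 on mouse chromosome 9, Apoe, Apoc1, Apoc4 and Apoc2 on chromosome 7, Apob on chromosome 12 and Apoa2 on chromosome 1. The span of each gene or gene cluster in the mm9 annotation (chr9:46036663-46080002, chr7:20256928-20284515, chr12:7984454-8023641 and chr1:173155185-173156510) was extended by 100.0 kb on each side, and every peak that overlapped 1 of these 4 windows was taken. The windows held 91 of the 68667 CTCF peaks and 97 of the 68656 Rad21 peaks. Binding of both proteins was measured by ChIP-seq in the liver of 8-week-old female Crl:CD1(ICR) mice, an outbred stock, with 4 libraries for CTCF and 3 for Rad21. The labels name no treatment or engineered allele. Each list was called on the pooled libraries of its antibody, so no value below has a spread between mice, and no test between windows or genes was made. Values are therefore set beside those of all autosomal peaks or of all 21418 autosomal protein-coding genes.

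CTCF is a zinc-finger protein that binds a long DNA motif and stops cohesin, the ring complex that extrudes loops of chromatin, and Rad21 is a subunit of that ring. Sites bound by both are called cohesin-and-CTCF (CAC) sites, sites with CTCF but no Rad21 peak are Lone CTCF sites, and sites with Rad21 but no CTCF peak are cohesin-non-CTCF (CNC) sites. The last kind is known to lie often at enhancers and promoters used in a given tissue. Hepatocytes make most plasma apolipoproteins. Apoa1 and Apoa2 are the main proteins of high density lipoprotein, Apob is the structural protein of very low and low density lipoprotein, and Apoe is the ligand through which liver receptors take up remnant particles. Apoc2 activates lipoprotein lipase, Apoc3 inhibits it, Apoa5 promotes lipolysis of triglyceride, and Apoa4, Apoc1 and Apoc4 are exchangeable proteins of the same particles.

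Peaks were dense in all 4 windows. The 911 kb held 9.98 CTCF peaks and 10.6 Rad21 peaks per 100 kb, against 2.71 and 2.72 on the autosomes. The windows were also rich in genes, with 3.84 protein-coding 5′ ends per 100 kb against 0.866. The Apob window departed from this, since Apob was the only protein-coding gene that began in it, yet it held 12 CTCF and 19 Rad21 peaks, or 5.02 and 7.94 per 100 kb. The Apoa1-Apoa5 window (7 genes) held 26 CTCF and 32 Rad21 peaks, the Apoe-Apoc2 window (13 genes) 29 and 21, and the Apoa2 window (14 genes) 24 and 25. Loci of other secreted liver proteins, taken with the same extension, gave 26 CTCF and 34 Rad21 peaks over the 293 kb of albumin, alpha-fetoprotein and afamin, and 12 and 13 over the 242 kb of the fibrinogen genes. In CTCF and Rad21 peaks per 100 kb, the albumin locus lay between the windows, at 8.88 and 11.6, and the fibrinogen locus lay below all 4, at 4.96 and 5.37.

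**Figure D1:**
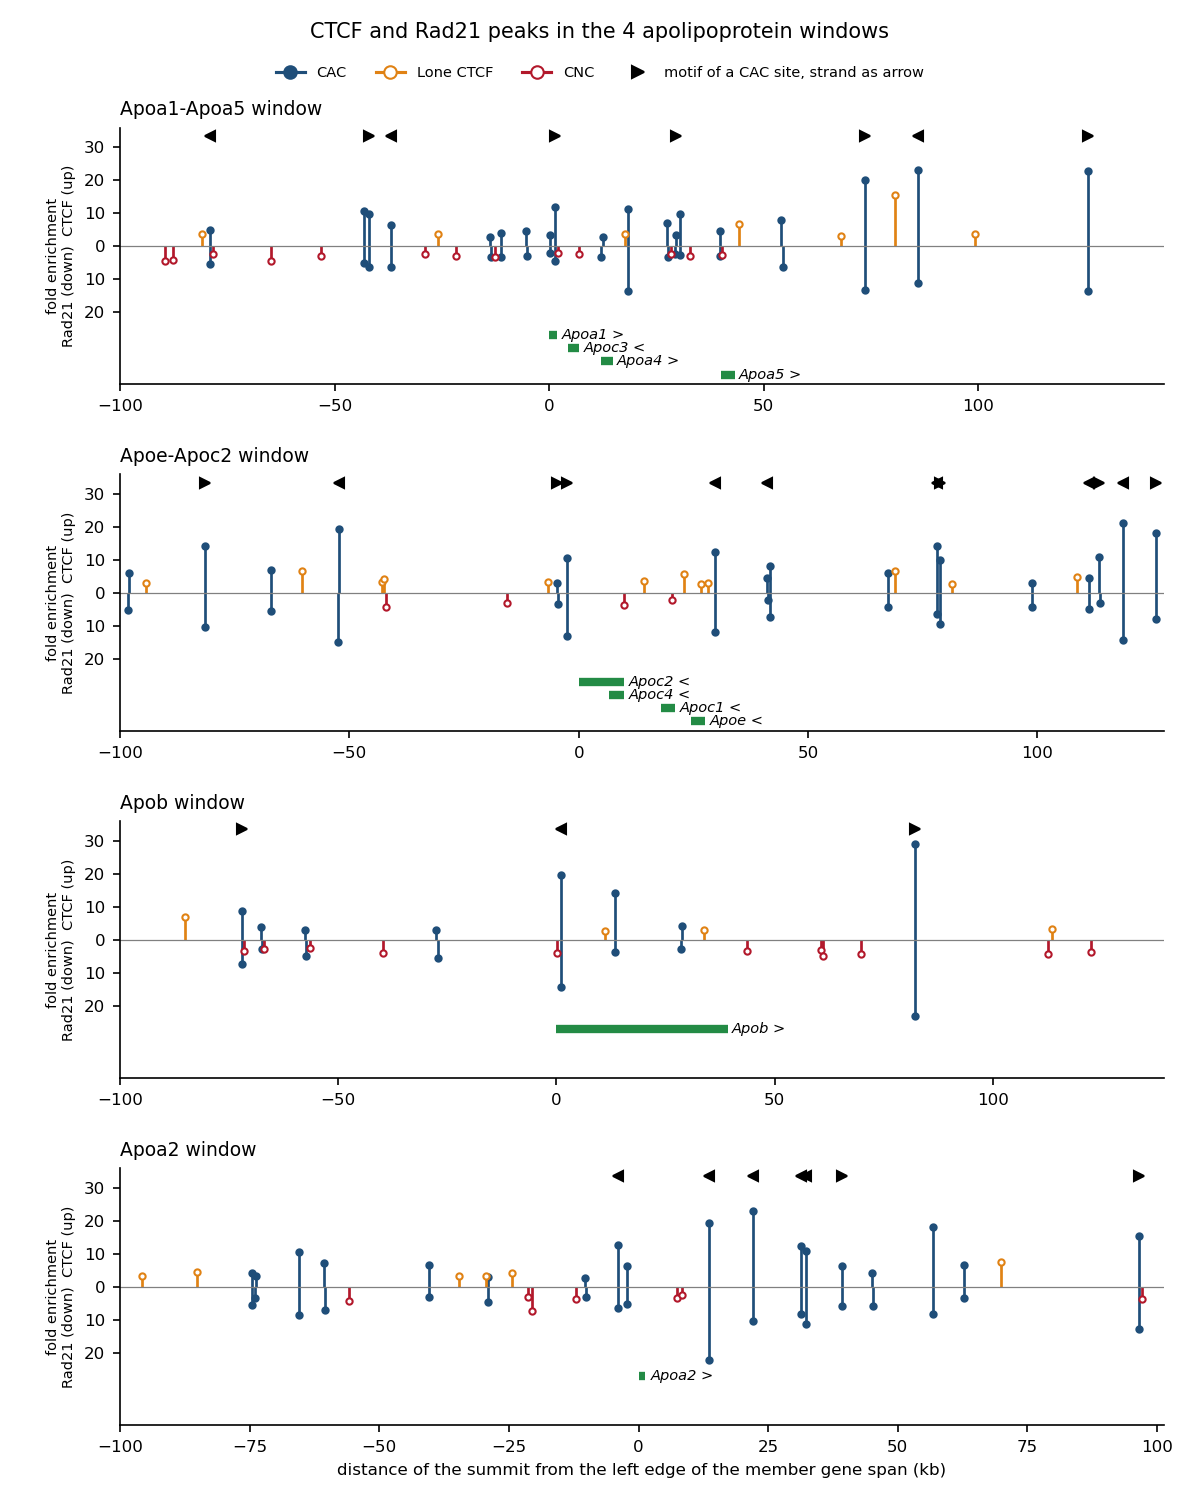
Position and fold enrichment of every peak in the 4 windows. The x axis is the distance in kb from the left edge of the member gene span, CTCF peaks point up and Rad21 peaks down, filled points are CAC, open orange points Lone CTCF and open red points CNC, arrows give the strand of the CTCF motif in CAC sites, and green bars are the genes. The highest CTCF peak of the 4 windows, at 29.0, lies to the right of Apob, and arrows that face each other stand just outside the 4 genes of the Apoe cluster.

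Cohesin was found at the promoters of most of these genes, often in peaks without CTCF. A Rad21 peak lay within 1.0 kb of the annotated 5′ end of 8 of the 10 genes, all but Apoe and Apoa2, against 50.5% of all autosomal protein-coding genes. A CNC peak lay there in 6 of 10 (Apoc3, Apoa5, Apoc1, Apoc4, Apoc2 and Apob), against 9.20%. A CTCF peak lay there in 5 of 10 (Apoa1, Apoa4, Apoa5, Apoe and Apob), against 50.9%, and a CAC peak in 4 of 10 (Apoa1, Apoa4, Apoa5 and Apob), against 46.8%. Widened to 10 kb, a CAC peak was near 8 of 10, all but Apoc4 and Apoc2, against 66.7%. The 6 CNC calls came from 5 peaks, because Apoc4 and Apoc2 share 1. Most of the Rad21 peaks at these promoters were weak. With only peaks of a −log10 q of at least 10, the Rad21 and the CNC counts both fell to 3 of 10 (Apob, Apoc4 and Apoc2), against 40.3% and 6.35% of all genes under the same minimum.

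**Figure D2:**
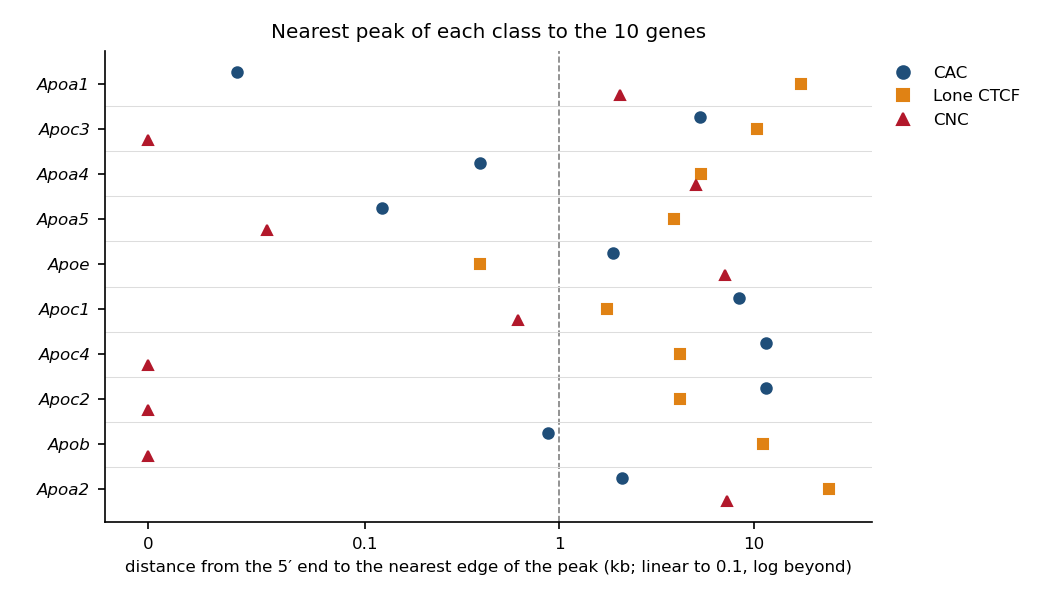
Distance in kb from the annotated 5′ end of each gene to the nearest edge of the nearest CAC, Lone CTCF and CNC peak, on an axis that is linear to 0.1 kb and logarithmic beyond. The dashed line marks 1.0 kb. CNC peaks span the 5′ ends of Apoc3, Apoc4, Apoc2 and Apob, while the nearest peak of Apoa2 is a CAC peak 2104 bp away.

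In the cluster of chromosome 9, each of the 4 genes had a weak Rad21 peak at or near its 5′ end, in different company. The −log10 q of the nearest Rad21 peak was 5.90 at Apoa1, 5.77 at Apoc3, 8.21 at Apoa4 and 5.46 at Apoa5. Fold enrichment, the ratio of reads at the summit to the local background, was 3.47 for a CTCF peak that began 41 bp inside Apoa1 (chr9:46036704-46037068) and 2.18 for its Rad21 partner, which covered the 5′ end. A second CAC site lay in the coding sequence near the 3′ end of Apoa1 (chr9:46037907-46038432). Its CTCF peak was far higher, at 11.9 with a −log10 q of 207, and its Rad21 peak reached 4.45. Apoc3, transcribed in the opposite direction, had a CNC peak over its 5′ end (chr9:46043458-46043777, fold enrichment 2.43) and no CTCF peak within 5.29 kb. Apoa4 had a weak CAC site whose CTCF peak, at 2.61, exceeded only 2.45% of the autosomal CTCF peaks. The Rad21 peak there reached 3.23, and the summits of the pair were 398 bp apart.

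Between Apoa4 and Apoa5 the chromosome 9 cluster held its strongest Rad21 peak. It lay 6220 bp downstream of the start of Apoa4 (chr9:46054810-46055298), with a fold enrichment of 13.7 beside 11.3 for CTCF, and no CTCF motif was called in it. Closer to Apoa5, 3 CAC sites stood from 9.5 to 12.6 kb upstream of its 5′ end, with CTCF values of 6.95, 3.29 and 9.59 and Rad21 values of 3.22, 2.53 and 2.72. The 5′ end of Apoa5 itself lay between a CAC site 122 bp upstream (chr9:46076254-46076594, CTCF 4.70, Rad21 3.04) and a CNC peak that began 55 bp inside the gene (chr9:46076771-46076966, 2.56). Past the 3′ end of Apoa5 a Lone CTCF peak of 6.61 stood 146 bp from the start of Zfp259, a zinc-finger gene on the same strand. The highest values of this window were farther out, with CTCF at 20, 23.2 and 22.7 from 33.6 to 85.6 kb beyond the start of Apoa5. The motif of the site in Apoa1 and those of these 3 sites are given as examples, in mm9 from the strand that carries the motif, with the 20 bases of the matrix match in capitals.
Apoa1 coding sequence, chr9:46038104-46038123, plus strand: ctctaCCGCCAGAAGGTGGCGCCTCtgggc
33.6 kb beyond Apoa5, chr9:46110367-46110386, plus strand: taggcTGGTCACTAGAGGGCAGTATggcat
46.1 kb beyond Apoa5, chr9:46122746-46122765, minus strand: gcatgTGTCCAGCAGATGGCAACATagagc
85.6 kb beyond Apoa5, chr9:46162300-46162319, plus strand: catcaCAGCCACTAGAGGGCAACGCaggct

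The Apoe cluster had strong CAC sites at its edges and, unlike the chromosome 9 cluster, only lower peaks of a single protein inside. Between the 3′ end of Apoc2 and the 5′ end of Apoe no CAC peak was called. The 3 CTCF peaks inside the span were all Lone CTCF and the 2 Rad21 peaks both CNC. The CNC peaks lay over the shared start of Apoc4 and Apoc2 (chr7:20266545-20266821, fold enrichment 3.60, −log10 q 17.3) and in coding sequence of Apoc1, 611 bp inside the gene (chr7:20277202-20277396, 2.17). The annotated 5′ end of Apoc2 is that of transcripts that begin at Apoc4, so the first peak is counted for both genes. By their nearest edge, the Lone CTCF peaks were 4.14 kb upstream of the shared start (3.69), 1.75 kb upstream of Apoc1 (chr7:20279753-20280099, 5.72) and within Apoe (chr7:20283520-20283760, 2.63).

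On either side of the span stood a CAC site. To the left, 2.50 kb beyond the 3′ end of Apoc2, CTCF reached 10.5 and Rad21 13.2 (chr7:20254219-20255228). To the right, 2.09 kb upstream of Apoe and towards Tomm40, CTCF reached 12.5 and Rad21 11.8 (chr7:20286398-20286968). The right site is the nearest Rad21 peak of Apoe, 1717 bp from its 5′ end, while the nearest CTCF peak of Apoe was a Lone CTCF peak 389 bp upstream, at 2.98. The motifs of the flanking sites were 32.2 kb apart and faced each other, on the plus strand at the left and on the minus strand at the right, with the 4 genes between them. Whether the sites contact each other was not measured.
left of Apoc2, chr7:20254412-20254431, plus strand: tctgcTCACCACTAGGGGGCACCCAacacc
right of Apoe, chr7:20286605-20286624, minus strand: catggTTGCCAGCAGGCGGCGCCGAgggtt

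In the Apoa1-Apoa5 and Apob windows the closest motif-bearing CAC sites outside the genes did not face each other. They were on the minus strand at the left and the plus strand at the right of the Apoa1-Apoa5 span (110 kb apart), and on the plus strand at both sides of Apob (154 kb). Only the closest site on each side was compared. Farther out in the Apoa1-Apoa5 window, a CAC motif on the plus strand at the left faced one on the minus strand at the right. At Apob the upstream motif faced the motif in the intron, across the 5′ end. Facing motifs were thus not limited to the Apoe cluster, and with so few windows this is a description only.

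At Apob, which encodes a very large protein, the highest CTCF and Rad21 peaks of the gene body lay near its start. A CNC peak covered the 5′ end (chr12:7984219-7984796), with a fold enrichment of 3.89, 102 fragments at the summit and a −log10 q of 27.5. A CAC site followed in an intron, with its CTCF summit 1097 bp from the 5′ end (chr12:7985328-7985790). CTCF reached 19.8 there, above 90.6% of the autosomal CTCF peaks, and Rad21 14.2. Of the other peaks inside the 39188 bp of the gene, 2 were Lone CTCF (2.57 and 2.83) and 2 were CAC sites, at 13.3 kb (CTCF 14.3, Rad21 3.68) and 28.7 kb (4.17 and 2.90) from the 5′ end. Beyond the 3′ end a single CAC site dominated, 82.1 kb from the 5′ end (chr12:8066336-8066744). Its CTCF value of 29.0 exceeded 99.7% of the autosomal CTCF peaks and its Rad21 value of 23.2 exceeded 98.3% of the autosomal Rad21 peaks. Upstream the highest CAC site, 72.1 kb away, had 8.83 and 7.24. These were the 3 CAC sites of the window with a called motif.
upstream of Apob, chr12:7912322-7912341, plus strand: ttgtcTTGCCACCAGAAGGCAGCACtgact
in the Apob intron, chr12:7985535-7985554, minus strand: ccataTGGCCACCAGATGGAGATGCtgccc
beyond Apob, chr12:8066569-8066588, plus strand: agagaTTGCCACCAGAGGGCAGCAGggcac

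The 5′ end of Apoa2 had no peak of either list within 2 kb. The nearest was a CAC site 2104 bp upstream (chr1:173152725-173153081, CTCF 6.28, Rad21 5.15), which lay 258 bp from the start of Tomm40l. A second CAC site stood 4.02 kb upstream, in an intron of Tomm40l (chr1:173150896-173151437, 12.5 and 6.60). Downstream, CNC peaks of 3.56 and 2.40 lay 7.39 and 8.29 kb from the 5′ end in introns of Fcer1g. The motif of the CAC site in Tomm40l lay on the minus strand.
Tomm40l intron, chr1:173151126-173151145, minus strand: tttggCGTCCACCAGGGGGCACTGTgagat

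Cohesin without CTCF made up different shares of the Rad21 peaks in the 4 windows, from 4 of 21 in the Apoe-Apoc2 window (19.0%, 95% Wilson interval 7.67 to 40) to 11 of 19 in the Apob window (57.9%, 36.3 to 76.9). The Apoa1-Apoa5 window had 13 of 32 (40.6%, 25.5 to 57.7) and the Apoa2 window 7 of 25 (28.0%, 14.3 to 47.6). These intervals overlap, and they cover counting error only. Over the 4 windows 35 of 97 Rad21 peaks were CNC (36.1%, 27.2 to 46.0) against 26.6% on the autosomes. At the albumin and fibrinogen loci the counts were 12 of 34 and 5 of 13. Lone CTCF peaks were 29 of 91 (31.9%, 23.2 to 42.0) against 26.2%, with 12 of 29 in the Apoe-Apoc2 window and 7 of 26, 4 of 12 and 6 of 24 in the Apoa1-Apoa5, Apob and Apoa2 windows. Restricted to peaks with a −log10 q of 10 or more in both lists, the CNC share was 26.3% against 19.5% on the autosomes, and restricted to a fold enrichment of 5.0 or more it was 15.4% against 16.3%. When CAC was defined by summits within 100.0 bp of each other, it was 50.5% against 39.4%. Under the same 3 settings the Lone CTCF share was 42.5% against 28.6%, 31.2% against 29.7% and 47.3% against 39.2%.

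Peak strength followed the class in each window. CTCF fold enrichment had a median of 7.44 in CAC peaks and 3.69 in Lone CTCF peaks of the windows, and Rad21 fold enrichment a median of 5.57 in CAC peaks and 3.41 in CNC peaks. In the Apob window the CTCF medians were 6.50 in CAC and 2.99 in Lone CTCF peaks, although it held the highest single peak. By fold enrichment, the medians of Rad21 in the Apoa1-Apoa5 window were 4.45 in CAC peaks and 2.89 in CNC peaks. The highest CNC value, 7.24, belonged to a peak 20.5 kb upstream of Apoa2 (chr1:173134413-173134968). The highest Lone CTCF value, 15.4, was found 40.7 kb beyond the start of Apoa5 (chr9:46117161-46117636), and no motif was called in that peak.

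**Figure D3:**
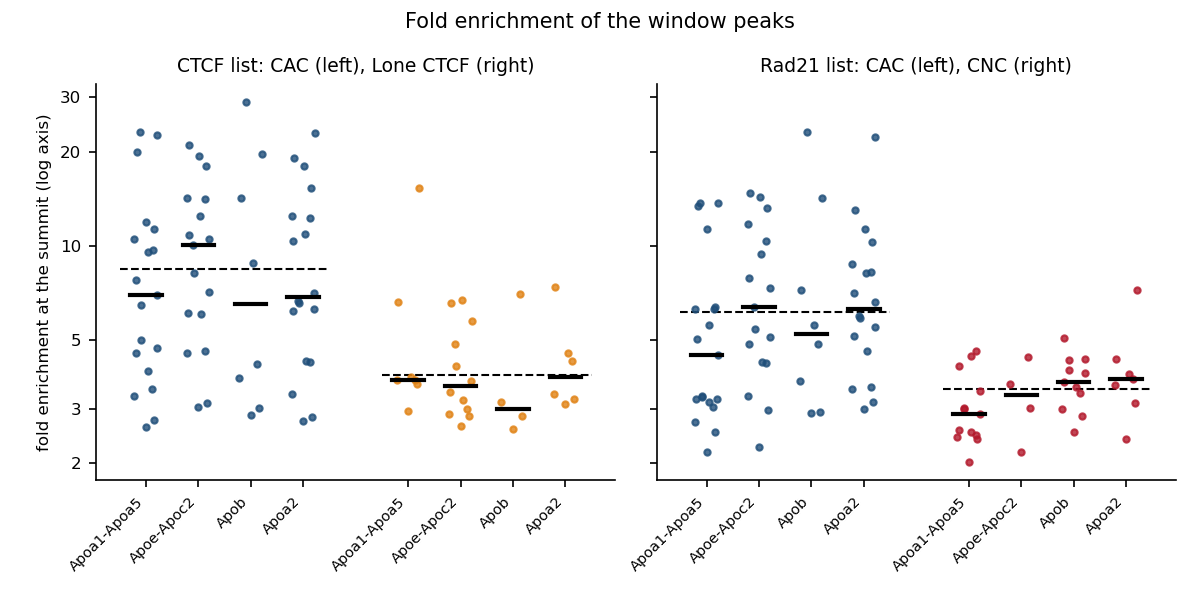
Fold enrichment at the summit, on a logarithmic axis, of each peak by window and class, with the CTCF list at the left and the Rad21 list at the right. Thick bars are medians of a window and dashed lines the autosomal median of the class. CAC peaks spread from 2.61 to 29.0 for CTCF and from 2.18 to 23.2 for Rad21, and CNC peaks from 2.02 to 7.24.

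Whether these peaks were weaker or stronger than other liver peaks depended on the measure. By fold enrichment the medians of the windows were below those of the autosomes, at 7.44 against 8.40 for CTCF in CAC peaks, 3.69 against 3.85 in Lone CTCF peaks, 5.57 against 6.14 for Rad21 in CAC peaks and 3.41 against 3.48 in CNC peaks. By −log10 q they were above, at 75.3 against 52.9, 12.1 against 9.14, 30.3 against 25.2 and 7.34 against 6.72 in the same order. Fold enrichment and p-value together fix the number of fragments at the summit and the background that MACS2 compared it with, and these were computed for every window peak. The summits held more fragments than those of the autosomal peaks, with medians of 138 against 92 in CAC and 48.0 against 34.0 in Lone CTCF peaks of the CTCF list, and of 78.5 against 58.0 in CAC and 37.0 against 29.0 in CNC peaks of the Rad21 list. The local background was higher by a larger factor in each class. In CAC peaks it was 2.47 times the lowest value of the CTCF list and 2.63 times that of the Rad21 list, against 1.64 and 1.68 on the autosomes. In Lone CTCF peaks it was 1.63 times the lowest, against 1.09, and in CNC peaks 1.91 times, against 1.38.

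**Figure D4:**
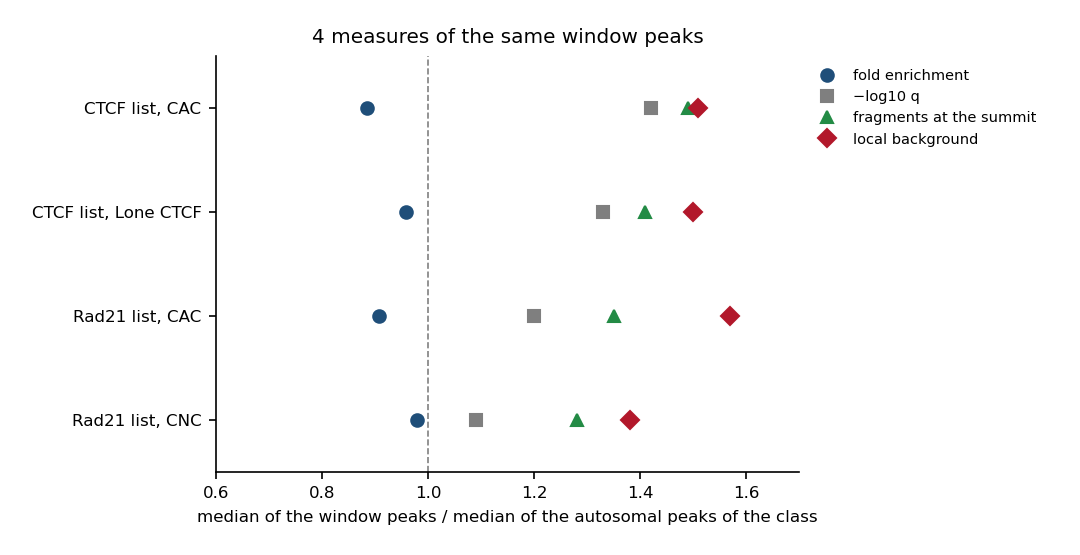
Ratio of the median of the window peaks to the median of the autosomal peaks of the same list and class, for 4 measures of the same peaks. Fold enrichment lies between 0.885 and 0.980 times the autosomal median, −log10 q between 1.09 and 1.42, fragments between 1.28 and 1.49, and the local background between 1.38 and 1.57.

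Over the 4 windows together, the median background was higher beside the genes than farther away. Peaks within 10 kb of a member span had a median background of 3.82 times the lowest value of the CTCF list (n = 26) and 2.98 times that of the Rad21 list (n = 28), against 1.92 and 2.0 in the rest of the windows (n = 65 and 69). In the windows 14 Rad21 peaks had a background in the highest 5% of the autosomal Rad21 peaks. Of these, 11 lay within 10 kb of a member span, but of the 16 such CTCF peaks 9 did and 7 did not. The Apoe-Apoc2 window held 12 of these 16, of which 5 were farther than 10 kb, and the highest CTCF background of the windows, 6.44 times the lowest, was among those 5. At Apob the Rad21 medians were close, at 1.80 within 10 kb and 1.71 farther away. At the promoters, the background of the Rad21 peaks was 5.55 times the lowest at Apoa1, 3.72 at Apoc3, 2.26 at Apoa4, 2.99 at Apoa5, 5.01 at Apoc1, 3.78 at Apoc4 and Apoc2, and 5.06 at Apob. The Apoc1 peak thus had 56 fragments at its summit with a fold enrichment of 2.17, whereas a CNC peak 43.6 kb downstream of the start of Apob had 31 fragments with 3.52. Whether an input control entered the background is not stated in the paper's methods. The source of the background, and its part in which weak promoter peaks were called, was not tested.

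CTCF motifs were scored with a 20 bp matrix learned from the 1000 strongest CTCF peaks of 7 other chromosomes, whose most frequent bases read TGGCCACCAGGGGGCGCCAG. A motif was called at 14.2 bits, a score that 1% of flanking sequences reach. It was present in 30 of 62 CAC peaks of the CTCF list (48.4%, 95% Wilson interval 36.4 to 60.6) against 44.3% on chromosomes not used for learning, and in 11 of 29 Lone CTCF peaks (37.9%, 22.7 to 56.0) against 39.8%. Around the Rad21 summits it was present in 27 of 62 CAC peaks (43.5%) against 43.3%, and in 0 of 35 CNC peaks, against 2.43%. By the limit of 3 counts a count of 0 allows a share of up to 8.57%, and the Wilson interval reaches 9.89%. The shares in the windows were close to the background in each class. The motifs of the CAC sites lay on the plus strand in 5 of 8 sites of the Apoa1-Apoa5 window, 6 of 12 of the Apoe-Apoc2 window, 2 of 3 of the Apob window and 2 of 7 of the Apoa2 window.

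The Lone CTCF motifs looked alike. After the matches had been read, a core was taken from matrix positions 4 to 14 of these 11, as the base that at least 8 of them share and otherwise N, which gave CCAGAAGNGGG. The whole core was in 8 of the 11, a count that this choice favours, and in 5 of the 30 motifs of CAC peaks. The contrast was also present over all matches on the chromosomes not used for learning, where the core was in 53.5% of the motifs of Lone CTCF peaks and in 15.4% of those of CAC peaks, so it is not particular to the apolipoprotein windows. In the windows, CAC peaks with the core had a median CTCF fold enrichment of 4.60 (3.03 to 9.70) and those with another match 14.1, against 9.61 and 15.2 on the chromosomes not used for learning. The 8 Lone CTCF peaks with the core had the higher median, 5.69, and the 3 others 3.39, against 4.26 and 4.65 on those chromosomes. Copies of the rodent repeat B2 are known to carry CTCF motifs. Whether these matches lie in repeats was not tested. The 8 Lone CTCF matches with it are shown, followed by the 2 CAC matches with the core that were nearest to a member gene cluster, with the matrix match in capitals.
Lone CTCF, 4.29 kb from the start of Apoa5, chr9:46080972-46080991: cagacACACCAGAAGAGGGCGTCAGacccc
Lone CTCF, Relb intron, chr7:20196516-20196535: cctggAGGCCAGAAGAGGGCGATGGctcac
Lone CTCF, Pvrl2 intron, chr7:20325787-20325806: tgtacAGGCCAGAAGGGGGCGCCAAaagcc
Lone CTCF, upstream of Pvrl2, chr7:20338224-20338243: cgtggAGGCCAGAAGAGGGCAGCAGattcc
Lone CTCF, Cblc intron, chr7:20365430-20365449: tgaggATGCCAGAAGGGGGCGATGGatttc
Lone CTCF, 85.1 kb upstream of Apob, chr12:7899322-7899341: cacgaAGGCCAGAAGAGGGCGTCAGatctc
Lone CTCF, Pcp4l1 intron, chr1:173120457-173120476: cagacCCACCAGAAGAGGGCATCAGatccc
Lone CTCF, upstream of Pcp4l1, chr1:173130771-173130790: caaggAGGCCAGAAGAGGGTGTCAGatccc
CAC, left of Apoc2, chr7:20252277-20252296: cttgaAAGCCAGAAGAGGGCGCCAGgtccc
CAC, in Tomm40, chr7:20297950-20297969: cagacTCACCAGAAGGGGGCATCAGatctc

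**Figure D5:**
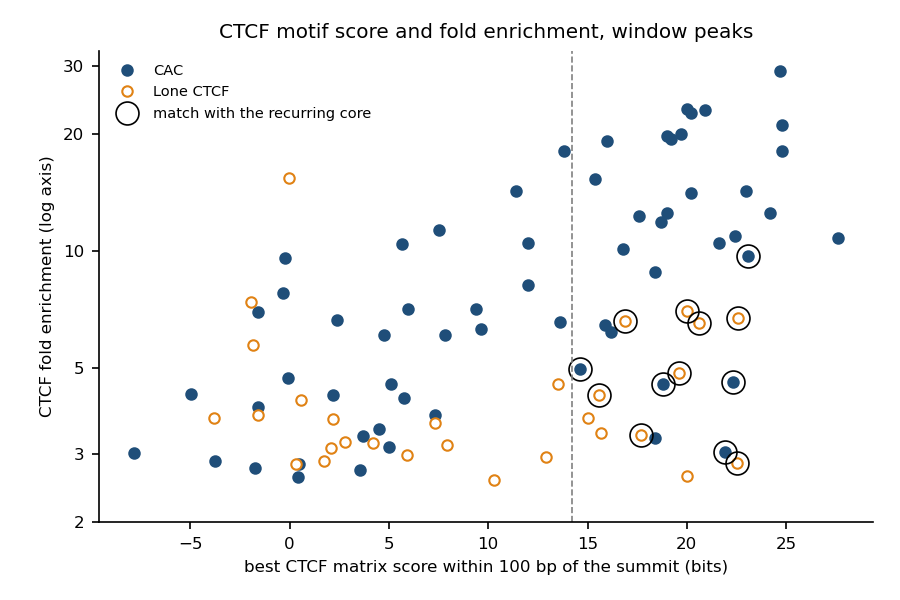
Best CTCF matrix score within 100.0 bp of the summit, in bits, against CTCF fold enrichment on a logarithmic axis for the 91 window peaks. Filled points are CAC and open points Lone CTCF, black rings mark matches with the recurring core, and the dashed line is the threshold of 14.2 bits. The ringed peaks all lie at or below a fold enrichment of 9.70, while the 6 highest peaks are CAC peaks without the core.

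Words of liver transcription factors were sought within 100.0 bp of the summits, on both strands: TGTTTAC and TGTTTGC for FOXA, CAAAGTCC for HNF4A, TTGCNNAA for C/EBP, GTTAATNAT for HNF1, and AGGTCAAAG, a direct repeat bound by nuclear receptors, whose last letters are the first of the HNF4A word so that both can match in 1 place. At least 1 word was present in 13 of 35 CNC peaks (37.1%) against 26.4% of autosomal CNC peaks, and in 8 of 62 CAC peaks of the Rad21 list (12.9%) against 15.7%. The FOXA words were in 4 of 35 CNC peaks against 11.7%, the C/EBP word in 5 of 35 against 12.9%, HNF4A in 2 of 35 against 2.85%, and HNF1 in 3 of 35 against 1.09%. The direct repeat was in 0 of 35, which by the same limit of 3 counts allows a share of up to 8.57%, against 0.924%. None of the 5 CNC peaks at the promoters held a word. The HNF1 matches were in CNC peaks 39.8 kb upstream and 60.7 kb downstream of the start of Apob, and in a peak 982 bp upstream of Nr1i3, which encodes the nuclear receptor CAR, 12.1 kb from Apoa2. The HNF4A matches were 12.6 kb upstream of Apoa1, in an intron of Sik3, and 56.5 kb upstream of Apob. With counts this small the shares are uncertain. Within 50 bp of the summit 3 of the 35 CNC peaks held any word (8.57%), below the 13.8% of autosomal CNC peaks, whereas within 100.0 bp the share was above that of the autosomes. In CAC peaks of the Rad21 list it was 3 of 62 within 50 bp, against 7.56%. The words are shown in capitals.
HNF1, chr12:7944727-7944735, plus strand: gttgtgtcaaGTTAATAATtaagactgag
HNF1, chr12:8045124-8045132, plus strand: atccaatcaaGTTAATAATaaaaattaag
HNF1, chr1:173143021-173143029, minus strand: gtggtttcttGTTAATCATagcttattat
HNF4A, chr9:46024150-46024157, minus strand: gtctgggactCAAAGTCCttagctgagc
HNF4A, chr12:7927896-7927903, minus strand: ttatcatgaaCAAAGTCCccgtgtaagt

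Other genes of lipoprotein assembly, remodelling, uptake and control were described with the same rules, as a list of 40. A Rad21 peak lay within 1.0 kb of the 5′ end in 32 of 40 (50.5% of all genes), a CTCF peak in 28 (50.9%), a CAC peak in 28 (46.8%) and a CNC peak in 12 (9.20%), and a CAC peak lay within 10 kb in 37 (66.7%). The genes with a CNC peak included Abca1, which loads cholesterol onto Apoa1, the apolipoprotein genes Apof and Apon, Apobec1, which edits the Apob transcript, P4hb, a subunit of the microsomal transfer protein that lipidates Apob, Tm6sf2, Lcat, Angptl4, Angptl8 and Nr1h4. Apobec1, Apof, Apon and Angptl8 resembled Apoc3 in having a CNC peak and no CTCF peak within 1.0 kb, with Rad21 fold enrichments of 3.11, 2.49, 3.47 and 2.47. Scarb1, a receptor for particles that carry Apoa1, had a CAC peak at the 5′ end instead, with CTCF at 7.71 and Rad21 at 6.49. Mttp, the lipid-transfer subunit, had its nearest peaks 1.52 kb upstream, at 12.5 for CTCF and 11.2 for Rad21.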

How the data were processed

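ChIP-seq reads of 4 CTCF and 3 Rad21 libraries were mapped by the authors to mm9 with Bowtie2, kept where unique, pooled by antibody and called with MACS2, after which peaks in blacklisted regions and peaks of duplicate reads were removed. Each deposited list gives per peak a score, a fold enrichment ratio at the summit over local background, and −log10 values of p and q. The summit offset was also used as deposited. The authors' pooling leaves no column for a single library, and depth per library was not computed. In each antibody the title of the last library carries a different code from the others, whose meaning the labels do not give. Absence from a list is not absence of binding.

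Members and lists were chosen with earlier results of these data known. Peaks overlapping by at least 1 bp were CAC. Genes are those of GENCODE M1, and sequence is of the same build (pysam 0.24.0, samtools 1.23.1, numpy 2.4.6, pandas 2.3.3, scipy 1.17.1, matplotlib 3.10.9). Angptl8 was matched by its synonym Gm6484, so that all 40 genes of the wider list were found. Named peaks were those within 10 kb of a member span, CAC peaks with a motif, and the highest of each list. Others named by position, word or class maximum were chosen after their values were seen. Some sites and genes that fall under this rule are not reported here. The motif matrix was learned within 50.0 bp of the summits, and its threshold was set on 47050 windows 1000.0 bp away. Fragment counts were solved from fold enrichment, taken as (count + 1)/(background + 1), and the Poisson p of MACS2. This step was added after seeing the data. It gave whole counts for 67008 of 67010 autosomal CTCF peaks and all 67228 Rad21 peaks, to within 0.001 in −log10 p or 0.05% of values above 100. The lowest background was 6.28 fragments for CTCF and 5.03 for Rad21. Alternatives were other window sizes, minimum q and fold enrichment, other overlap rules, other measures of strength, and another motif rate and search width. Overlap, motif and count steps were tested on simulated data.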

Additional observations from a re-analysis of the deposited data

How the results depend on the processing

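No paired analysis was possible because the lists were called on pooled libraries and no result comes from a test, and for the same reason no library could be left out. A ratio of medians that crossed 1 was counted as changed, whatever its size. Of 101 values recomputed under alternatives, 50 stayed within 1.5 times a count or ratio or within the 95% interval of a share. These were 28 of 53 values over all windows or genes and 22 of 48 counts of single windows. CNC peaks of the Apoa1-Apoa5 window went from 13 to 3 with a −log10 q of at least 10, to 1 when fold enrichment had to reach 5.0 and to 23 with 200 kb on each side, and those of the Apoe-Apoc2 window from 4 to 2, 0 and 13. Window size set the counts: CTCF and Rad21 peaks were 57 and 62 with 50 kb on each side and 159 and 164 with 200 kb. A fold enrichment of at least 5.0 left 48 and 39 peaks and a CNC share of 15.4%. A −log10 q of at least 10 left 57 Rad21 peaks, a Lone CTCF share of 42.5%, a CNC share of 26.3%, and 3 genes with a Rad21 and 3 with a CNC peak at the promoter. With summits within 100.0 bp the shares were 47.3% and 50.5%. The ratio of window to autosomal median, below 1 by fold enrichment, turned above 1 by −log10 q (1.42 in CAC and 1.33 in Lone CTCF peaks of the CTCF list, 1.20 in CAC and 1.09 in CNC peaks of the Rad21 list) and by fragments, an alternative chosen after seeing the data (1.49, 1.41, 1.35 and 1.28). A 5.0% background rate gave a motif in 56.5% of Rad21 CAC peaks, and words within 50 bp of the summit were in 4.84% of CAC and 8.57% of CNC peaks (autosomes 7.56% and 13.8%), where less sequence was searched. The share of CNC peaks with a word thus turned from above to below that of the autosomes. The cause of the other shifts was not tested. Pooled lists do not show which peaks recur between mice, and 3 of the 5 CNC peaks at the promoters had a −log10 q under 10.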
